A study of Mus musculus with 15 samples.

Results

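The superoxide dismutase and glutathione peroxidase genes were examined in sorted mouse pancreatic alpha, beta and delta cells. These are the 9 genes Sod1, Sod2, Sod3, Gpx1, Gpx2, Gpx3, Gpx4, Gpx7 and Gpx8, taken by symbol from the 38283 genes of the deposited table, and all 9 had a row. Of these, 7 had a mean above 1 FPKM (the fragments counted for a gene, scaled to its transcript length and to the mapped reads of the library) in at least 1 cell type and were tested, as were 14405 genes in all. Sod3 and Gpx8 did not reach this level.

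Glu-Venus mice gave 5 alpha cell and 4 beta cell samples. In these mice the fluorophore Venus is driven by the proglucagon promoter. Another 6 samples, of delta cells, came from Sst-CreXROSA26EYFP/EYFP mice, in which Cre driven by the somatostatin promoter switches on a yellow reporter. The strain is C57BL/6 in every sample, and the labels give no age. Alpha cells were collected as Venus-positive cells, and beta cells as Venus-negative cells with high scatter and autofluorescence, so no beta cell gene marked them. Each sample pooled the islets of 2 to 5 mice, so the spread between samples is one between pools, and all p-values measure that spread only. Delta cells came from another mouse line than the rest, so line and cell type cannot be told apart for them.

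Superoxide dismutases (SOD) convert superoxide, a by-product of respiration, into hydrogen peroxide and oxygen. Glutathione peroxidases (GPX) then reduce hydrogen peroxide or lipid peroxides to water or alcohols at the expense of glutathione, in parallel with catalase and the peroxiredoxins. Pancreatic beta cells are known for low levels of several hydrogen peroxide-removing enzymes, and the alpha and delta cells of the same islets are less studied in this respect.

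GPX enzymes fall into a selenium-dependent group, in which a TGA codon is read as selenocysteine in the active site, and a group with cysteine at that place. The 30 coding bases around this codon are shown for the 6 GPX members because they set the groups apart, 5′ to 3′ on the coding strand, with the codon in capitals (GENCODE M21 transcripts, GRCm38). In Gpx1 to Gpx4 the codon is the annotated selenocysteine codon. In Gpx7 and Gpx8 it was placed by the best in-frame match to the Gpx4 window, with 19 and 18 of the 30 bases in common.
Gpx1: aatgtcgcgtctctcTGAggcaccacgatc
Gpx2: aatgtggcgtcactcTGAggaacaactacc
Gpx3: aacgtagccagctacTGAggtctgacagac
Gpx4: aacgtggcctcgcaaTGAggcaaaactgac
Gpx7: aacgtagctagcgaaTGTggcttcacagac
Gpx8: aacgtggctagtgacTGCcgcttcacagac
The codon lies at chr9:108339451-108339453 in Gpx1 (plus strand), chr12:76795256-76795258 in Gpx2 (minus), chr11:54907256-54907258 in Gpx3 (plus), chr10:80054737-80054739 in Gpx4 (plus), chr4:108403430-108403432 in Gpx7 (minus) and chr13:113045661-113045663 in Gpx8 (minus). The 3 SOD genes lie at chr16:90220754-90226329 (Sod1), chr17:13006846-13040063 (Sod2) and chr5:52363791-52371418 (Sod3), all on the plus strand.

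The hormone genes were read first to check the labels. Gcg, the glucagon gene, was between 184400 and 344900 FPKM in alpha cells and at most 1817 FPKM in beta and 767 FPKM in delta cells. Ins2, an insulin gene, was at least 91250 FPKM in beta cells and at most 9094 FPKM elsewhere. Sst, the somatostatin gene, was at least 101500 FPKM in delta cells and at most 2427 FPKM elsewhere. Ribosomal protein transcripts also split the samples across the cell types. In alpha samples 1, 2 and 3, in beta sample 2 and in the first 2 delta cell samples, there was a summed FPKM of 85 ribosomal protein genes above 50000 (65611 to 140979), and the other 9 samples had 7919 to 38775. The higher set thus holds a single beta cell sample. Total FPKM over all genes also differed, at 12474400 to 26258000 in the higher set and 2815720 to 4671210 in the other 9 samples. Sequencing depth could be estimated, from the steps that single reads leave in low values, in 5 samples. The estimates are rough, at 7.6 M mapped reads in alpha sample 2, 10.1 M in delta sample 2, and 30.5 M and 25.5 M in delta samples 3 and 4. Delta sample 1 was barely resolved, and the depth is unknown in the other 10.

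Across the 3 cell types, the F-test of limma, fitted to log2(FPKM + 1), called 3 of the 7 members tested at an adjusted p under 0.05, namely Gpx3, Gpx1 and Sod1 (adjusted p = 8.4e-07, 0.0153 and 0.0335), against 16.0% of all genes tested. The Sod1 call was kept in 9 of the 15 fits that left out 1 sample (highest adjusted p 0.145, without beta sample 1) and lost after rescaling without hormone genes (0.0803, limma). The Gpx1 call was kept in 14 of these 15 fits and lost without beta sample 1 (limma F-test, adjusted p = 0.0528). In beta against alpha cells only Gpx3 was called, lower in beta cells, where 7.66% of all genes were called and 4.82% were called lower. In delta against beta cells Gpx3, Gpx1 and Sod1 were all called higher in delta cells, where 14.7% of all genes were called and 11.7% were called higher. In delta against alpha cells limma called 0 members, against 6.81% of all genes, and 1 member, Gpx1, had an unadjusted p under 0.05. The members' median log2 difference was -1.16 for beta against alpha, 0.11 for delta against alpha and 1.28 for delta against beta cells, beside medians of -0.13, 0.13 and 0.30 over all genes. The comparisons share samples and are not independent of each other. In sorted populations, fewer cells that express a gene and less RNA per cell cannot be told apart.

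**Figure D1:**
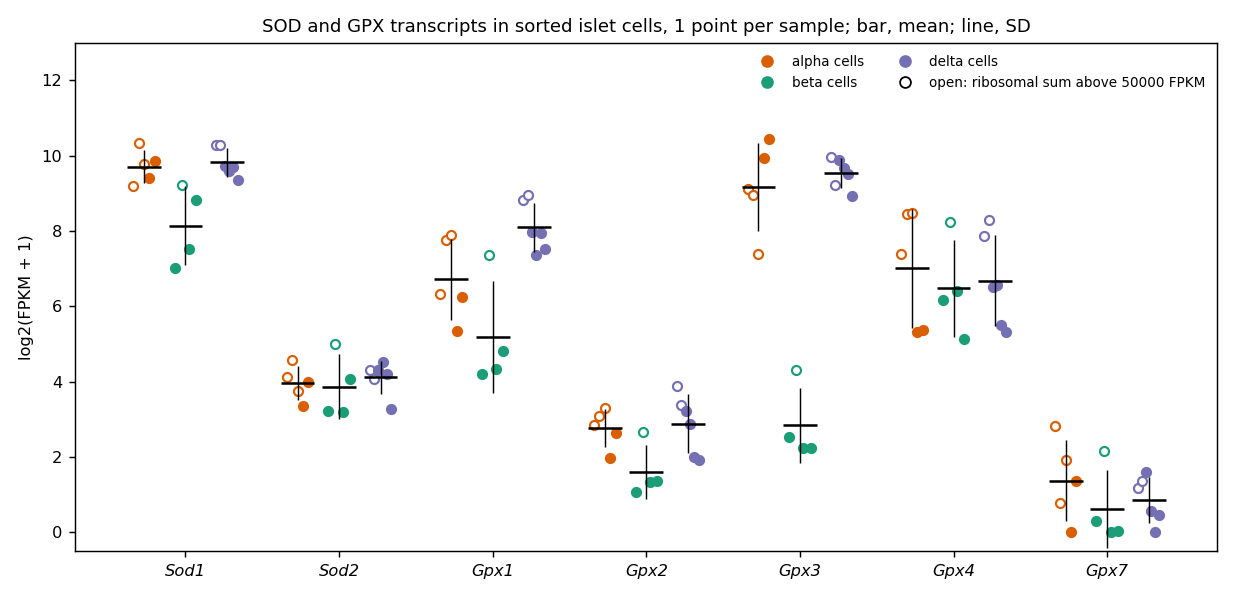
log2(FPKM + 1) of the 7 members tested, with 1 point per sample (5 alpha, 4 beta and 6 delta cell samples), the mean as a bar and the SD as a line; open points are the 6 samples with a ribosomal protein sum above 50000 FPKM. Gpx3 in beta cells lies below every alpha and delta cell sample, and the open point of beta cells, sample 2, is the highest of its group for all 7 genes.

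SOD1 is the copper-zinc enzyme of the cytosol, and its transcript was, by the mean, the most abundant member in all 3 cell types. In alpha samples 1 to 5, Sod1 was at 579, 1298, 871, 677 and 926 FPKM. In beta samples 1 to 4 it was at 127, 592, 183 and 449 FPKM, and in delta samples 1 to 6 at 1243, 1247, 848, 768, 834 and 654 FPKM. Every delta cell sample was above every beta cell sample, as for 12.3% of the genes tested, while beta sample 2 overlapped with the lowest alpha cell sample.

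The means of Sod1 were 870 ± 278 FPKM (SD, n = 5) in alpha, 338 ± 220 (SD, n = 4) in beta and 932 ± 252 (SD, n = 6) in delta cells. Delta cells were higher than beta cells by a log2 difference of 1.68 (SE 0.461, limma adjusted p = 0.0215), a 2.76-fold ratio of mean FPKM. The call was made in 24 of 27 alternatives. It was lost at 1.31 without beta sample 1 (limma adjusted p = 0.0875), at 1.48 without beta sample 3 (0.0594) and at 1.62 after rescaling without hormone genes (0.0834). The lower level in beta than in alpha cells, with a log2 difference of -1.57 (SE 0.479, limma adjusted p = 0.0566), missed the threshold. It was called in 6 of 27 alternatives, among them the fit without beta sample 2 (-1.93, limma adjusted p = 0.0128), and its size depended on the scaling, from -2.63 after rescaling over transcripts above 1000 nt to -0.33 after rescaling without hormone genes (limma adjusted p = 0.000833 and 0.785). Delta and alpha cells differed by 0.11 (SE 0.432, limma adjusted p = 0.949). Sod1 ranked 95 of 38283 genes by mean FPKM in alpha, 156 in beta and 57 in delta cells. Its last 650 bases overlap Scaf4 on the opposite strand (mean 5.38 to 7.89 FPKM), and the library kit is not stated to keep strand. The summed duct cell markers, 6 genes led by Spp1, were at 40.5 to 184 FPKM in alpha, 14.3 to 32.7 in beta and 37.05 to 106 in delta cells. Like Sod1, they were highest in sample 2 of each type. Of them, Cftr was listed at 0 throughout alpha and beta cells and Krt19 throughout delta cells. The part of duct cells in the Sod1 levels was not tested.

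SOD2 is the manganese enzyme of the mitochondrial matrix, and its transcript had similar mean FPKM in the 3 cell types as deposited. The means were 15.2 ± 5.17 FPKM (SD, n = 5) in alpha, 15.7 ± 10.6 (SD, n = 4) in beta and 16.9 ± 4.52 (SD, n = 6) in delta cells. Samples of all types overlapped, from 8.06 FPKM in beta sample 3 to 30.7 FPKM in beta sample 2. The log2 differences were -0.10 for beta against alpha (SE 0.416), 0.16 for delta against alpha (0.376) and 0.25 for delta against beta cells (0.40), with adjusted p of 0.937, 0.902 and 0.729 (limma). These differences depended on the scaling. Over 27 alternatives beta against alpha cells ran from -1.05 to 1.02 and delta against alpha cells reached 1.23, neither called in any. Delta against beta cells ran from -0.14 to 1.38, called at the latter value (limma adjusted p = 0.0143), after rescaling over transcripts above 1000 nt.

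SOD3, the secreted copper-zinc enzyme of the extracellular matrix, was listed at 0 in all 5 alpha cell samples, in 2 of the 4 beta and in 4 of the 6 delta cell samples. Its highest value was 0.0215 FPKM, in delta sample 4. None of 10 housekeeping genes was listed at 0 in any sample, and the lowest of their values was 1.83 FPKM. Stromal cell markers were near the floor as well, with a summed level of 9 genes between 0.0972 and 4.95 FPKM over the 15 samples.

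Gpx3 showed the widest difference of the family. GPX3 is the secreted, selenium-dependent peroxidase of plasma. In alpha samples 1 to 5 its transcript was at 553, 498, 167, 974 and 1379 FPKM, and in delta samples 1 to 6 at 1004, 595, 946, 820, 723 and 484 FPKM. In beta samples 1 to 4 it was at 4.81, 18.7, 3.72 and 3.74 FPKM. The lowest alpha or delta cell sample was far above the highest beta cell sample, so the beta cells did not overlap with either. In beta against alpha cells, 5.07% of the genes tested were lower without overlap.

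The means of Gpx3 were 714 ± 469 FPKM (SD, n = 5) in alpha, 7.75 ± 7.34 (SD, n = 4) in beta and 762 ± 201 (SD, n = 6) in delta cells, ratios of 92.2 for alpha over beta and 98.3 for delta over beta cells. Beta cells were lower than alpha cells by a log2 difference of -6.33 (SE 0.586, limma adjusted p = 3.6e-06), and delta cells higher than beta cells by 6.70 (SE 0.564, limma adjusted p = 8.3e-07). Delta and alpha cells differed by 0.36 (SE 0.529, limma adjusted p = 0.803). This difference was called in 0 of 27 alternatives and changed sign among them, from -0.68 to 1.535. In alpha cells the mean was 406 FPKM in the higher and 1177 FPKM in the lower ribosomal set. Gpx3 ranked 116 in alpha, 68 in delta and 5322 in beta cells among the 38283 genes. Among the genes tested, 0.0417% had a lower log2 difference between beta and alpha cells.

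A small amount of Gpx3 was left in beta cells, where transcripts of the other hormones were also found. Beta sample 2 had the highest Gpx3 of the 4 together with the highest Gcg (1817 FPKM, against 166 to 299 in the others) and the highest Sst (461 FPKM, against 37.9 to 89.8). Taken as a percentage of the mean of alpha cells, Gpx3 in beta samples 1 to 4 was 0.673%, 2.62%, 0.521% and 0.524%, and Gcg was 0.0955%, 0.666%, 0.0608% and 0.109%. Sst was 0.0550%, 0.283%, 0.0232% and 0.0436% of its delta cell mean. Ppy, which encodes pancreatic polypeptide, was 0.115%, 0.322%, 0.0996% and 0.0557% of its alpha cell mean, and Pyy, which encodes peptide YY, was 0.168%, 0.489%, 0.212% and 0.122%. The percentage was thus higher for Gpx3 than for any of these 4 hormone genes in each beta cell sample. The sum of Ppy and Pyy, listed here as PP cell markers, ran with Gpx3 over the cell types. It was at 57420 to 85550 FPKM in alpha, 62.9 to 283 in beta and 35520 to 114000 in delta cells. Pyy alone was at least 31190 FPKM in every alpha and 22690 FPKM in every delta cell sample, so the sum does not single out PP cells. The part of PP cells or other islet cells in the Gpx3 levels was not tested.

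Over the 15 samples, the genes whose log2(FPKM + 1) was most like that of Gpx3 were Pyy (Pearson r = 0.972), Kcnk3 (r = 0.971), a two-pore potassium channel, and Eif4h (r = 0.965), a translation initiation factor. Pyy was at 37760 ± 6973 FPKM (SD, n = 5) in alpha, 93.5 ± 62.3 (SD, n = 4) in beta and 46750 ± 15880 (SD, n = 6) in delta cells. Kcnk3 was at 11.8 ± 2.66, 0.109 ± 0.0512 and 10.02 ± 1.84 FPKM in the same order. For Sod1 the most alike genes were Dtd1, Calm3 and Timmdc1 (r = 0.948, 0.943 and 0.940), and for Gpx1 they were Pabpc1l, Psmb8 and Tmem176b (0.966, 0.958 and 0.956). All were selected as the best matches among 14405 genes, and the samples share cell type and ribosomal set.

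GPX1 is the abundant cytosolic and mitochondrial enzyme that removes hydrogen peroxide. In alpha samples 1 to 5, Gpx1 was at 79.8, 215, 235, 39.8 and 74.2 FPKM, and in beta samples 1 to 4 at 17.3, 164, 19.0 and 27.3 FPKM. In delta samples 1 to 6 it was at 449, 492, 251, 163, 245 and 183 FPKM. Except for beta sample 2, which was just above delta sample 4, all beta cell samples were below all delta cell samples.

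The means of Gpx1 were 129 ± 89.5 FPKM (SD, n = 5) in alpha, 56.8 ± 71.5 (SD, n = 4) in beta and 297 ± 139 (SD, n = 6) in delta cells. Delta cells were higher than beta cells by a log2 difference of 2.92 (SE 0.653, limma adjusted p = 0.00660), or 2.62 above the median of all genes. This difference was called in all 27 alternatives and ran from 2.51 to 4.13. The ratio of mean FPKM was 5.23. It rests in part on beta sample 2, at 164 FPKM, as the other 3 beta cell samples averaged 21.2 FPKM. Delta against alpha cells gave 1.38 (SE 0.613, limma adjusted p = 0.254), called in 5 of 27 alternatives and ranging from 1.04 to 2.55, and beta against alpha cells -1.54 (SE 0.679, limma adjusted p = 0.187). The last difference was called in 3 of 27 alternatives, without beta sample 2 among them (-2.27, limma adjusted p = 0.0198), and ran from -2.57 to -0.32, the latter after rescaling without hormone genes (limma adjusted p = 0.678). Macrophage and leucocyte markers, of which 9 were in the table and C1qa led, moved with Gpx1 in part. Their sum was 8.80 to 28.8 FPKM in alpha, 1.35 to 22.1 in beta and 17.2 to 44.8 in delta cells, and it was highest in beta sample 2 and delta sample 2, which also had the highest Gpx1 of their groups. Among alpha cells it was highest in sample 5, where Gpx1 was below samples 1 to 3. Of these markers, Ptprc, Emr1 and Cd3e were listed at 0 throughout alpha cells, and Emr1, C1qb and Cd3e throughout beta cells. The part of these cells in the Gpx1 levels was not tested.

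Gpx1 varied with the ribosomal set within each cell type. Its mean in the samples of the higher set was 3.10 times that of the lower set in alpha, 7.73 times in beta and 2.24 times in delta cells. Within the 9 samples of the lower set, Gpx1 was at 39.8 and 74.2 FPKM in alpha (n = 2), from 17.3 to 27.3 in beta (n = 3) and from 163 to 251 in delta cells (n = 4). In a fit of these samples alone, delta cells were higher than beta cells by 3.25 (limma adjusted p = 0.000545) and higher than alpha cells by 1.91 (limma adjusted p = 0.0279). With the set as a covariate in the fit of all samples, the difference between delta and alpha cells was 1.84 (limma adjusted p = 0.00515).

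**Figure D2:**
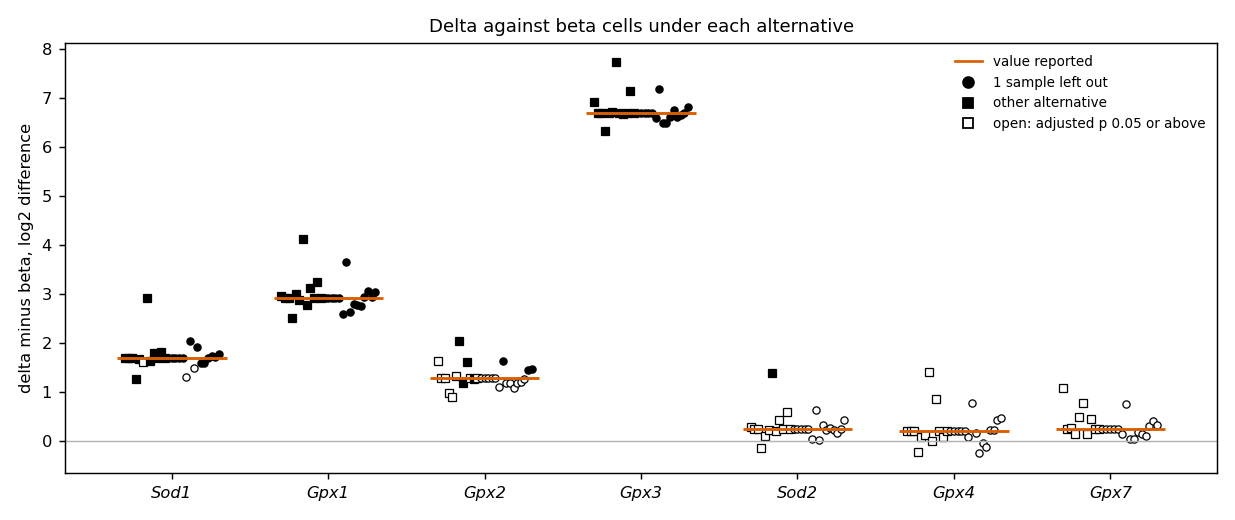
Delta minus beta difference of mean log2(FPKM + 1) of the 7 members under each of 27 alternatives, with circles for fits without 1 sample, squares for other processing and a line for the value reported; open symbols had an adjusted p of 0.05 or above. All symbols of Gpx1 and Gpx3 are filled, 3 of Sod1 are open, and Sod2 is filled only after rescaling over transcripts above 1000 nt, at 1.38.

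**Figure D3:**
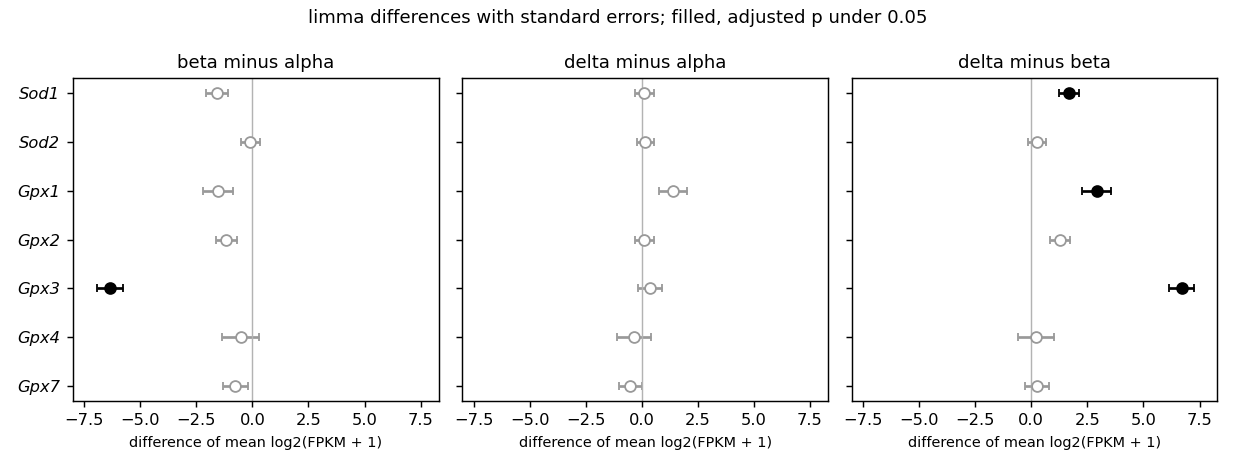
Differences of mean log2(FPKM + 1) between pairs of cell types for the 7 members tested, with limma's standard error as the bar; filled points had an adjusted p under 0.05. Only Gpx3 is filled in beta minus alpha, none in delta minus alpha, and Sod1, Gpx1 and Gpx3 in delta minus beta cells.

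GPX4 is the selenium-dependent peroxidase that reduces lipid hydroperoxides in membranes. Its transcript was at 190 ± 157 FPKM (SD, n = 5) in alpha, 122 ± 120 (SD, n = 4) in beta and 135 ± 112 (SD, n = 6) in delta cells. The samples of all types overlapped, from 33.9 FPKM in beta sample 4 to 358 FPKM in alpha sample 3. The log2 differences were -0.53 (SE 0.841), -0.33 (0.760) and 0.20 (0.810) for beta against alpha, delta against alpha and delta against beta cells, with adjusted p of 0.759, 0.895 and 0.908 (limma). None was called in any of 27 alternatives, and each changed sign among them, with ranges of -1.56 to 0.71, -0.75 to 0.84 and -0.25 to 1.41.

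The spread of Gpx4 followed the ribosomal set. The means of the higher and the lower set were 291 and 39.8 FPKM in alpha, 299 and 62.6 in beta, and 273 and 66.5 in delta cells. No member but Gpx7 in beta cells, at 0 to 0.224 FPKM in the lower set, had a wider ratio between the sets in any cell type than the 7.30 of Gpx4 in alpha cells and the 7.73 of Gpx1 in beta cells. Over the genes tested, the median log2 difference between the sets was 0.17 for genes whose longest transcript is at most 1000 nt, 0.79 for those above 1000 and up to 2000 nt, 0.45 for those up to 4000 nt and -0.03 for those above 4000 nt. The coding transcript of Gpx4 measures 995 nt and that of Gpx1 1072 nt, which need not be the longest transcript of either gene. The part of transcript length in their spread was not tested.

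GPX2, a selenium-dependent cytosolic enzyme best known from the gut epithelium, was low in all 3 types. Gpx2 was at 6.12 ± 2.24 FPKM (SD, n = 5) in alpha, 2.37 ± 1.98 (SD, n = 4) in beta and 7.25 ± 4.12 (SD, n = 6) in delta cells. Beta samples 1, 3 and 4, at 1.08, 1.53 and 1.55 FPKM, were below every alpha and delta cell sample, and beta sample 2, at 5.32 FPKM, lay among them. Delta against beta cells gave a log2 difference of 1.28 (SE 0.438, limma adjusted p = 0.0620), and beta against alpha cells -1.16 (SE 0.455, limma adjusted p = 0.135). Of 27 alternatives, 7 called the former and 2 the latter. Without beta sample 2 both passed, at 1.63 (limma adjusted p = 0.0179) and -1.51 (0.0408). Delta against beta cells fell to 0.90 with quantile normalization (limma adjusted p = 0.116), and beta against alpha cells shrank to -0.26 after rescaling without hormone genes (0.763). Gpx2 lies wholly within Fntb on the opposite strand, whose mean was 17.6, 11.8 and 13.4 FPKM in alpha, beta and delta cells, so reads of the 2 genes may not be told apart.

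GPX7 and GPX8, the cysteine forms, reside in the endoplasmic reticulum, where they use peroxide in oxidative protein folding. Gpx7 was at 2.21 ± 2.38 FPKM (SD, n = 5) in alpha, 0.922 ± 1.69 (SD, n = 4) in beta and 0.949 ± 0.781 (SD, n = 6) in delta cells, and was listed at 0 in 1 sample of each type. No pair differed beyond the spread (smallest adjusted p = 0.457, limma). Gpx8 was listed at 0 in all 15 samples. It lies wholly within Cdc20b on the opposite strand, which was listed at 0 in all 3 cell types as well. Gpx5 and Gpx6, the remaining mouse GPX genes, were also listed at 0 in all 15 samples.

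Ratios of 2 members within a sample do not depend on a scaling that multiplies the whole sample by 1 factor. Quantile normalization, and effects that differ with transcript length, can still change them. Sod1 over Sod2 was between 15.4 and 28.4 in beta cells, below its range of 35.1 to 73.8 in alpha and 35.02 to 78.7 in delta cells. Gpx3 over Sod1 was between 0.00834 and 0.0377 in beta cells, against 0.192 to 1.49 in alpha and 0.477 to 1.12 in delta cells. Gpx1 over Gpx4 was between 1.57 and 5.55 in delta cells and between 0.228 and 0.804 in beta cells, with alpha cells from 0.479 to 1.83. Gpx1 over Sod1 had a median of 0.295 in delta, 0.138 in alpha and 0.120 in beta cells, and its ranges overlapped.

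Beta cells thus had low Sod1 relative to Sod2, and low Gpx3 relative to either Sod1 or Gpx1, in each of the 4 samples, those of both ribosomal sets included. How often ratios of other gene pairs separate the cell types in this way was not counted. The Gpx3 ratios largely restate its difference in level. Sod1 by itself was not called between beta and alpha cells (limma adjusted p = 0.0566). By share of the summed FPKM of the 9 members, Sod1 held a median of 58.4% in beta, 41.2% in alpha and 43.3% in delta cells, and Gpx3 held 1.46%, 39.3% and 37.0%. Gpx4 held 27.4% in beta cells, 11.8% in alpha and 4.57% in delta cells. The summed FPKM of the 9 members ranged from 230 to 1113 in beta, 1407 to 2441 in alpha and 1371 to 2963 in delta cells.

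**Figure D4:**
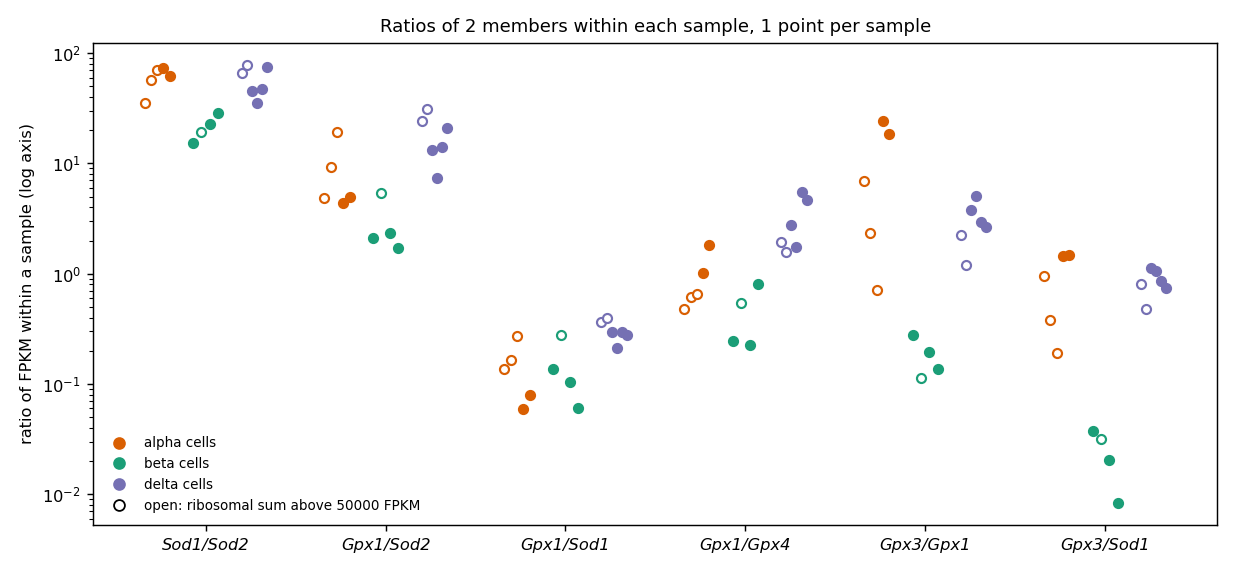
Ratio of the FPKM of 2 members within each sample, on a log axis, with 1 point per sample; open points are samples with a ribosomal protein sum above 50000 FPKM. Beta cell points lie below all alpha and delta cell points for Sod1 over Sod2, Gpx3 over Gpx1 and Gpx3 over Sod1, and the latter reach no higher than 0.0377.

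Promoter sequences were read for the 8 members with an entry in RefSeq (GRCm38.p6), from 250 bases before to 50 after the start. Gpx3 and Sod1 are shown as the members whose beta cell samples did not overlap with delta cells. Both strands were searched for the core of the antioxidant response element (TGACNNNGC), through which NRF2 acts, an AP-1 site (TGANTCA) and a TATA box (TATAAA), none of which contains another. These letters are held by 12.4%, 7.81% and 13.6% of the 32851 promoters of this length. Among the 11 promoters of the members, only that of Sod1 held any, with the antioxidant core on the minus strand at -56 and the TATA box at -37 from the start (first base of each on the plus strand), shown in capitals. A match is a description of letters and shows no binding.
Gpx3 (chr11:54902604-54902903, plus strand): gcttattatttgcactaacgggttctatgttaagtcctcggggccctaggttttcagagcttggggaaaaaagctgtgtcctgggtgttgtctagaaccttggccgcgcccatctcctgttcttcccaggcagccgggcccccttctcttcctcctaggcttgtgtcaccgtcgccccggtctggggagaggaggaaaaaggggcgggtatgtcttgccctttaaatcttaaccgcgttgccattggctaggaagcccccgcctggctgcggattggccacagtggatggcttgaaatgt
Sod1 (chr16:90220512-90220811, plus strand): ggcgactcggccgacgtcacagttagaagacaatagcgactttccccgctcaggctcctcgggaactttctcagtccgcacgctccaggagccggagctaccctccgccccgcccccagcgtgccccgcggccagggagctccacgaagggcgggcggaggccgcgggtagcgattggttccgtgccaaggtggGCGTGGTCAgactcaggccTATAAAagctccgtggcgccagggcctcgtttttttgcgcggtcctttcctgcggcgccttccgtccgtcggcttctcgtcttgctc

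The rest of the pathway was read from lists of 87 redox genes, for which 66 entries were tested, Mafg having 2 entries. In beta against alpha cells 3 were called higher and 3 lower, in delta against alpha cells 5 higher and 2 lower, and in delta against beta cells 8 higher and 4 lower. These are 9.09%, 10.6% and 18.2% of the 66 entries tested, beside 7.66%, 6.81% and 14.7% of all genes tested. The numbers in each direction depended on the scaling. In beta against alpha cells they were 9 higher and 5 lower with size factors or quantile normalization, 10 and 2 after rescaling without hormone genes, and 0 and 19 after rescaling over transcripts above 1000 nt. In delta against beta cells they were 7 and 12, 9 and 9, 6 and 2, and 34 and 2 in the same order of scalings, and in delta against alpha cells 5 and 2, 6 and 2, 13 and 0, and 7 and 1. The genes called as reported kept their direction in all alternatives that tested them. The calls between beta and alpha cells were the least stable, each made in 16 to 24 of 27 alternatives, and the 6 genes became 3 without alpha sample 1, 1 without alpha sample 2, and 2 without alpha sample 3, beta sample 1 or beta sample 4.

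Catalase, the peroxisomal enzyme that splits hydrogen peroxide, stood in the order alpha, beta, delta, and both differences from delta cells were called in all 27 alternatives. In alpha samples 1 to 5, Cat was at 0.0381, 0.209, 0, 0.246 and 0 FPKM, and in beta samples 1 to 4 at 1.04, 2.27, 0.414 and 0.304 FPKM. In delta samples 1 to 6 it was at 5.17, 6.12, 5.64, 5.39, 3.76 and 5.82 FPKM. Lack of overlap with delta cells was part of the rule by which redox genes were named, and is no result. Delta cells exceeded alpha cells by 2.52 on the log2 scale (SE 0.263, limma adjusted p = 1.0e-05) and beta cells by 1.74 (SE 0.280, limma adjusted p = 0.000543). Beta cells exceeded alpha cells by 0.78 (SE 0.292, limma adjusted p = 0.121).

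Of the 6 peroxiredoxins, thiol enzymes that reduce peroxides, 2 were called, both lower in beta than in alpha cells. Prdx2, a cytosolic form, was at 309 ± 289 FPKM (SD, n = 5) in alpha and 50.4 ± 60.8 (SD, n = 4) in beta cells, a log2 difference of -2.71 (SE 0.753, limma adjusted p = 0.0381). Prdx5 had a log2 difference of -2.13 (SE 0.541, limma adjusted p = 0.0249). Both overlapped through beta sample 2. Of the 27 alternatives, 17 called Prdx2 and 20 called Prdx5, with differences as small as -1.48 and -0.91.

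**Figure D5:**
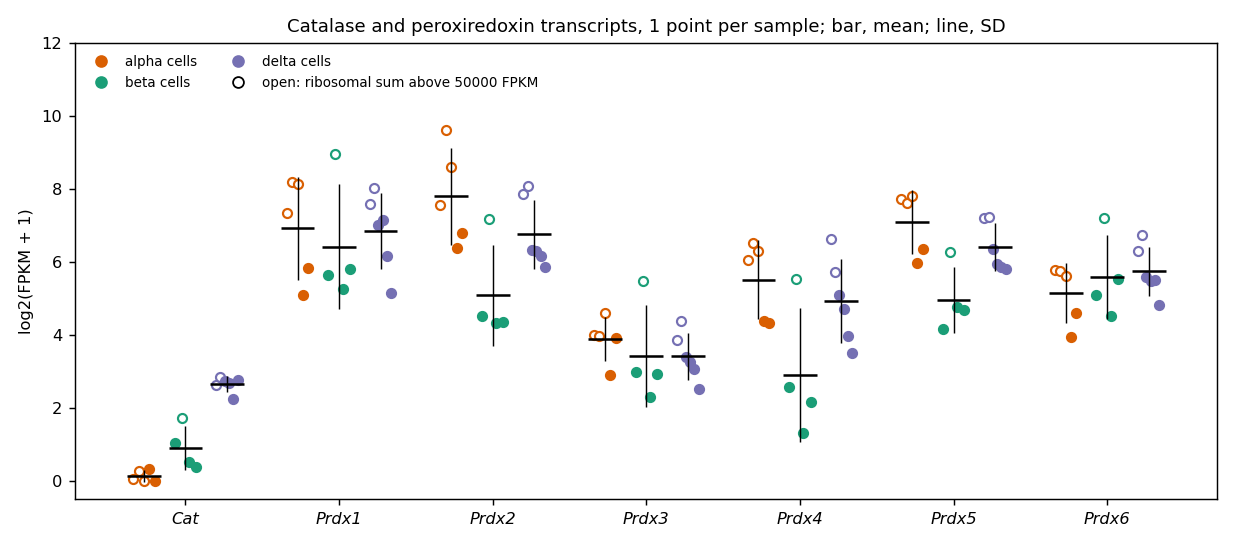
log2(FPKM + 1) of catalase (Cat) and the 6 peroxiredoxin genes, with 1 point per sample, the mean as a bar and the SD as a line; open points are samples with a ribosomal protein sum above 50000 FPKM. The mean of Cat is lowest in alpha and highest in delta cells, and the open point of beta cells is the highest of its group for all 7 genes.

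Ccs, the chaperone that loads copper into SOD1, was lower in beta cells, as was Sod1 against delta cells. It was at 5.12 ± 2.29 FPKM (SD, n = 5) in alpha, 1.53 ± 0.781 (SD, n = 4) in beta and 5.92 ± 1.65 (SD, n = 6) in delta cells. The log2 differences were -1.25 for beta against alpha (SE 0.332, limma adjusted p = 0.0309) and 1.47 for delta against beta cells (SE 0.319, limma adjusted p = 0.00535). The former was called in 19 of 27 alternatives and was as small as -0.37 (adjusted p up to 0.720), and the latter in 26. The metallothioneins Mt1 and Mt2, which bind zinc and copper, exceeded their alpha cell levels in beta cells, by 1.78 and 2.27 (limma adjusted p = 0.0368 and 0.0150). Over 27 alternatives these were as small as 0.74 and 1.16, and 16 and 24 called them. In delta against beta cells, Mt2 was lower (-2.34, limma adjusted p = 0.00518), a difference called in 2 of 4 other scalings and as small as -1.10 over all alternatives.

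Among the selenium genes, only Lrp8, a lipoprotein receptor that takes up selenoprotein P, was called, higher in delta than in alpha cells by 1.92 (SE 0.342, limma adjusted p = 0.00165) and than in beta cells by 2.00 (SE 0.365, limma adjusted p = 0.00144). Of the glutathione genes, Slc3a2, the heavy chain of several amino acid exchangers, had a delta minus alpha difference of -1.59 (limma adjusted p = 0.00848), called in 2 of 4 other scalings and as small as -0.48 (adjusted p up to 0.427), and Gss, glutathione synthetase, a delta minus beta difference of 1.72 (limma adjusted p = 0.0120). Gsr, glutathione reductase, had means of 11.2, 10.6 and 12.5 FPKM in alpha, beta and delta cells, and no pair was called.

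In the thioredoxin and glutaredoxin list, Glrx, a cytosolic glutaredoxin, was low in delta cells, with a difference of -1.88 from alpha (limma adjusted p = 0.0198) and of -2.96 from beta cells (limma adjusted p = 0.000798), and Txnrd1, thioredoxin reductase, rose from beta to delta cells by 1.18 (limma adjusted p = 0.0262). Among genes of the NRF2 system, Gstm1, a glutathione transferase, was higher than in alpha cells by 1.44 in beta and 2.09 in delta cells (limma adjusted p = 0.0332 and 0.00099). Gsta4, a transferase for lipid aldehydes, was listed at 0 in all 4 beta cell samples, and the delta cells averaged 8.04 ± 5.97 FPKM (SD, n = 6). In delta against beta cells, Keap1, the NRF2 inhibitor, was higher by 1.22 (limma adjusted p = 0.00700), and Bach1, a repressor, and Nqo1, a target, were lower by -1.79 and -2.17 (limma adjusted p = 0.0262 and 0.0223). Over 27 alternatives the difference of Keap1 was as small as 0.77 (limma adjusted p up to 0.270) and was called in 1 of 4 other scalings, and that of Bach1 as small as -0.76 (up to 0.390) and was called in 2. The Gstm1 difference between beta and alpha cells was called in 2 of the 4, down to 0.45 (up to 0.657). Slc3a2 in delta against alpha and Mt2 in delta against beta cells were called in 2, as given above. Every other redox difference named as called was called in at least 3 of the 4. Among the 27 alternatives, 20 called Glrx against alpha cells (as small as -0.83), 21 called Txnrd1 (0.82), 24 called Nqo1 (-1.28), 25 called Gss and 26 called Lrp8 in each comparison.

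Of the superoxide sources, 2 of 13 genes were tested, and Noxo1, an NADPH oxidase organiser, was higher in delta than in alpha and beta cells by 1.467 and 1.402 (limma adjusted p = 0.00812 and 0.0108). Its mean was 3.08 FPKM in delta cells and below 1 FPKM in the others. Noxo1 thus passed the filter only through the cell type where it was called higher, and its calls are no separate support. In delta cells the summed acinar markers were also higher, at 98.9 to 712 FPKM over 15 genes, against 14.3 to 99.7 in alpha and 3.04 to 21.7 in beta cells, as were the 8 endothelial markers (9.87 to 29.8, 1.47 to 5.33 and 0.621 to 5.37 FPKM). The part of these cells in the redox genes that were higher in delta cells was not tested.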

How the data were processed

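RNA of 15 sorted samples was amplified (NuGEN Ovation V2) and sequenced by the authors, who aligned the reads to GRCm38 with TopHat (the submitters' processing notes give TopHat2 2.0.8) and ran Cufflinks 2.2.1. The deposited table holds its FPKM values, with genes down and the 15 samples across. The annotation release and any scaling between samples are not given in the sources used here. Their edgeR comparison used read counts, which were not used here.

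FPKM was tested with limma 3.58.1 in R 4.3.3 (eBayes with trend) on log2(FPKM + 1), which understates changes of low genes, with 1 mean per cell type, no covariate, all 15 samples in 1 fit and Benjamini-Hochberg adjustment over 14405 genes with a mean above 1 FPKM in at least 1 cell type. An adjusted p under 0.05 was a call. The fit was tested on simulated data first.

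The members and gene lists were chosen with earlier results of these data known. Named genes are the members, up to 4 called list genes without overlap per list and comparison, the 3 genes most correlated with each member called in the F-test, and hormone genes. Gss, Nqo1, Gsr, Prdx2, Prdx5 and Mt2 against alpha cells were added after their values were seen. Depth was read as the step size that puts low values of single-transcript genes on whole reads (score above 0.4). In the 5 samples resolved, 35.1% to 63.6% of values lay within 0.1 of a whole read, and in the other 10, 25.7% to 41.7%, so the shares overlap and the depths are rough estimates. Alternatives were other pseudocounts, filters and scalings, the ribosomal set, a replicate block, fits of 2 cell types and leaving out each sample. Rescaling without hormone genes equalised the summed FPKM of all other genes. It therefore also shifted the ribosomal sets against each other, and the part of the hormone genes in its results cannot be told apart. Python 3.11.15, pandas 2.3.3, numpy 2.4.6 and matplotlib 3.10.9 were used.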

Additional observations from a re-analysis of the deposited data

Results flagged for a closer look

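Of 23 groups of samples of a member in a cell type, 4 had a sample far from the others, where chance gives about 1.15. In beta sample 2, Gpx3 was at 18.7 FPKM and Gpx7 at 3.45 FPKM, each far above the other 3 beta cell samples; the same sample had the highest Gcg and Sst of its group and was the only beta cell sample with a ribosomal protein sum above 50000 FPKM. In delta sample 6, Sod2 was at 8.65 FPKM, below the other 5 delta cell samples. In delta sample 4, Sod3 was at 0.0215 FPKM, where the others were at or near 0.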

How the results depend on the processing

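Over 27 alternatives, 2 of them added after the data were seen (rescaling without hormone genes over transcripts above 1000 nt, and only the 9 samples of the lower ribosomal set), no called difference of a member reversed, and Gpx3 (beta against alpha and against delta cells) and Gpx1 (delta against beta cells) were called in all. Sod1 in delta against beta cells was lost in 3: at 1.62 (adjusted p = 0.0834, limma) after rescaling without hormone genes, and without beta sample 1 or 3. The F-test called Sod1 in 9 and Gpx1 in 14 of the 15 fits that left out 1 sample (highest adjusted p 0.145 and 0.0528, both without beta sample 1); Sod1 was lost without beta sample 1 or 3 or delta sample 1, 3, 4 or 5. The cause was not tested.

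Of the members tested, those called in beta against alpha cells (1 as reported) numbered 2 with a pseudocount of 0.1, median-ratio size factors or the ribosomal set as covariate, 3 with quantile normalization, 4 with the rescaling above 1000 nt, and 1 to 4 with 1 sample left out. In delta against alpha cells (0 as reported), 1 was called with quantile normalization, both rescalings, the covariate and the lower set, and 0 with 1 sample left out. With the rescaling above 1000 nt, 5 were called across cell types and 5 in delta against beta cells; leaving out 1 sample gave 1 to 4 and 2 to 4. Of the redox genes in beta against alpha cells (6 as reported), 14 were called with size factors, 14 with quantile normalization, 12 without hormone genes, 19 above 1000 nt, 10 with the covariate, 3 in the lower set, 0 in the fit of only these cell types (limma; 11 had an unadjusted p under 0.05), and 1 to 7 with 1 sample left out. In delta against alpha cells (7) they were 13 without hormone genes, 11 with the covariate and 6 to 7 with 1 sample left out, and in delta against beta cells (12) 19 with size factors, 36 above 1000 nt and 10 to 16 with 1 sample left out. The median of all genes moved from -0.13, 0.13 and 0.30 as reported (beta against alpha, delta against alpha, delta against beta) to 0.55, 0.91 and 0.32 without hormone genes and to -0.74, 0.28 and 1.04 above 1000 nt. Of all calls, 37.0%, 78.3% and 79.6% were higher as reported, 52.9%, 67.5% and 51.0% with size factors, 48.1%, 61.4% and 53.1% with quantile normalization, 84.6%, 94.6% and 76.7% without hormone genes, and 4.83%, 78.0% and 97.1% above 1000 nt.

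The correlation of the deviations of same-numbered samples ran from -0.15 to 0.28 over 13 pairs, 5 of them above 0.1. Of the 15 samples, 3 matched their own number best. Pairs with a delta cell sample come from different mouse lines and cannot share a pool of islets. Alpha and beta samples 1 to 4 had r of -0.04, 0.27, -0.15 and 0.07, too few pairs to tell whether they share pools. With the replicate number as a block, the members called numbered 4 across cell types and 1, 0 and 4 in the comparisons above, Gpx2 in delta against beta cells being added (adjusted p = 0.0250, limma). Depth is unknown in 10 samples, so no limit of detection is given for Sod3, Gpx7 or Gpx8.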
